A study of Drosophila melanogaster with 8 samples.

Results

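The vacuolar ATPase (V-ATPase) genes of the fly were taken as every gene whose symbol, current or in the authors' deposited table, begins with Vha. This rule found 32 of the 17559 genes in the count table, 29 by their current symbol and 3 (Vha44, VhaAC39-1 and VhaM8.9) by the authors' symbol only. By textbook roles, 11 encode subunits of the V1 sector, 18 encode subunits of the V0 sector and 3 encode accessory proteins. Vha26 and Vha13, which encode the E and G subunits of the V1 sector, were not matched to a row and are not analysed here.

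The V-ATPase is a rotary proton pump. Its V1 sector hydrolyses ATP on the cytosolic side and turns a central stalk, and this rotation drives a ring of proteolipids in the membrane-embedded V0 sector, which carries protons into the lumen of an organelle or out of the cell. The pump acidifies lysosomes and endosomes in every cell, takes part in nutrient sensing by TORC1 at the lysosome, and in the fly midgut acidifies the lumen next to the copper cells. In the Malpighian tubules it energises the transport of ions across the apical membrane.

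Whole guts of female Drosophila melanogaster adults gave 2 groups of 4 RNA-seq libraries. Control guts carried UAS>GFP and are given as wild type, and LamDm0 guts carried UAS-LamDm0, which expressed this B-type lamin in their enterocytes, the cells that absorb nutrients. All flies were raised at 18 °C and moved as adults of 2 to 4 days to 29 °C for 2 days, and the guts were dissociated for RNA extraction. The driver line is not named in the labels. The libraries of a group are called biological repeats, so each p-value sets a group difference against the spread between these repeats. The whole gut mixes enterocytes with stem, enteroendocrine, copper and muscle cells, and in such bulk samples fewer cells of a type and less RNA per cell cannot be told apart.

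The libraries held 19720070 to 36022790 counts, so that a floor of 3 counts stood at 0.0833 to 0.152 CPM (counts scaled to the library total). Lam, the gene expressed from the transgene, was at 18.3 ± 1.62 CPM (SD, n = 4) in the controls and at 3607 ± 957 CPM (SD, n = 4) in LamDm0 guts, which matched the labels in every library. The share of mitochondrially encoded genes ran from 5.55% to 15.2% among controls and from 8.53% to 21.8% among LamDm0 guts, with the highest share in LamDm0 replicate 1. Markers fixed for the fat body and ovary summed to 17.5 to 784 CPM in controls and to 908 to 1870 CPM in LamDm0 guts, whereas markers of the testis stayed at or below 0.204 CPM in all libraries. All CPM values except the floor, those of Lam and the marker sums included, are also scaled by TMM, the trimmed mean of M-values. Values for single libraries are given in the order of replicates 1 to 4.

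Of the 32 Vha genes, 1 was lower in LamDm0 guts, none was higher and 19 others were tested without passing the threshold, an adjusted p of 0.05. The gene that fell was VhaAC39-2, a sparse paralog of subunit d. Among all 8794 genes tested with edgeR's quasi-likelihood test, 8.03% were called, 4.76% as higher and 3.26% as lower, so that 1 of 20 members is close to this background. The same member was the only 1 of the 20 tested with an unadjusted p under 0.05, a level that 23.9% of all genes tested reached. DESeq2, which called 14.8% of all genes, and limma-voom, which called 7.78%, each called 1 Vha gene lower and 0 higher. A total of 12 members were not tested because their counts were too low, and 6 of these had 0 counts in all 8 libraries.

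**Figure D1:**
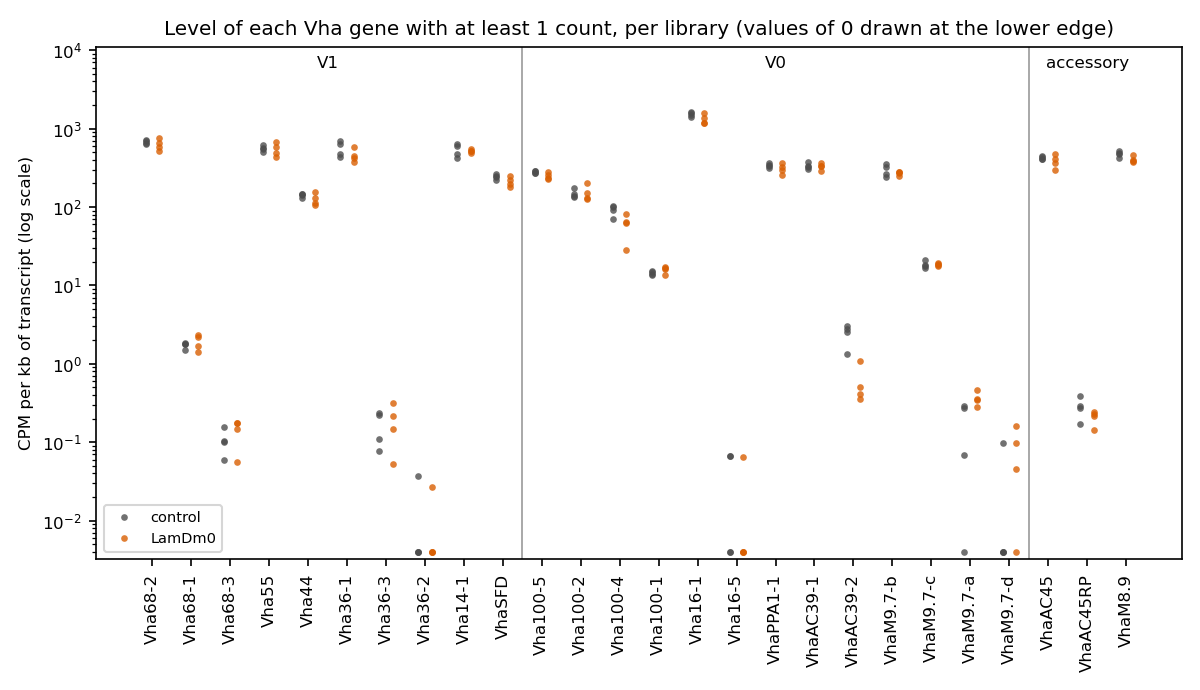
Level of every Vha gene with at least 1 count, as TMM-scaled CPM per kb of the longest transcript on a log axis, with 1 point per library for control and LamDm0 guts. Vha16-1 lies highest, at 1538 CPM per kb in controls, and for most subunits 1 paralog lies far above the others, while the libraries of both groups overlap for every gene but VhaAC39-2.

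The gut used mostly 1 paralog for each subunit, and subunit a was the exception. The paralog with the highest level was identified for each of 11 subunits and for both kinds of accessory protein, 13 genes in all. Vha16-1, which encodes the proteolipid subunit c of the rotor ring, had the highest level, at 1538 ± 107 CPM per kb (SD, n = 4) in controls and 1325 ± 195 CPM per kb (SD, n = 4) in LamDm0 guts. It ranked number 88 by level among the 17335 genes with a length, and in controls its level was 2.27 to 10.9 times that of the other 12 main genes, per kb. The levels of these other main genes in controls ran from 141 CPM per kb for Vha44 to 677 CPM per kb for Vha68-2, a 4.79-fold range. The complex holds several copies of subunit c and also more than 1 copy of subunits A and B, and no level was scaled to copies per complex.

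In the V1 sector, 6 main genes covered the catalytic head, the central stalk and subunits C and H, and the unmatched subunits E and G were not covered. Vha68-2 (2L, 12974322 to 12978607), the catalytic subunit A that binds and hydrolyses ATP, stood at 1827, 1645, 1776 and 1608 CPM in the controls and at 1317, 1482, 1642 and 1928 CPM in LamDm0 guts. The lowest library was LamDm0 1 and the highest LamDm0 4, so that the controls lay inside the range of the LamDm0 group. Its log2 difference was -0.11 ± 0.16 (SE), with a 95% interval from -0.47 to 0.25 (Benjamini-Hochberg adjusted p = 0.73 in edgeR). Vha55 (3R, 12623762 to 12627829), the subunit B that alternates with A in the head, stood at 1687, 1520, 1482 and 1363 CPM in controls and at 1169, 1334, 1571 and 1819 CPM in LamDm0 guts. It showed the same order of the LamDm0 libraries as Vha68-2, and its log2 difference was -0.039 ± 0.17 (SE; 95% interval -0.43 to 0.35).

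The subunits of the central stalk showed another order of libraries. Vha36-1 (2R, 15541435 to 15542498), the subunit D that forms the rotating shaft, was at 503, 457, 742 and 669 CPM in controls and at 622, 482, 397 and 454 CPM in LamDm0 guts. Vha14-1 (2R, 15679426 to 15680084), its partner subunit F, was at 313, 276, 414 and 396 CPM in controls and at 342, 345, 319 and 365 CPM in LamDm0 guts. For both genes controls 3 and 4 were above controls 1 and 2, and the groups overlapped. Controls 3 and 4 also had the higher mitochondrial shares of their group, 15.2% and 13.8% against 5.55% and 7.85%, and the part of this in the levels was not tested. The log2 differences were -0.28 ± 0.20 (SE; 95% interval -0.74 to 0.18) for Vha36-1 and -0.030 ± 0.15 (SE; 95% interval -0.37 to 0.32) for Vha14-1.

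The subunits that link the sectors and regulate their assembly were closer to the head. Vha44 (2R, 16324813 to 16336637), the subunit C that joins head and stator, was at 574, 546, 561 and 510 CPM in controls and at 417, 439, 503 and 598 CPM in LamDm0 guts. VhaSFD (2L, 16722883 to 16727826), the subunit H that silences the free V1 sector, was at 655, 596, 617 and 553 CPM in controls and at 457, 492, 546 and 619 CPM in LamDm0 guts. For each, 3 of the LamDm0 libraries were below every control and LamDm0 4 was not. Their log2 differences were -0.16 ± 0.14 (SE; 95% interval -0.49 to 0.16) and -0.20 ± 0.14 (SE; 95% interval -0.51 to 0.11). The exons of Vha44 share 3.68% of their bases with Hmgs on the opposite strand, and Hmgs rose from 68.0 to 103 CPM (log2 difference 0.60 ± 0.10, SE). The strand setting of the counting is not stated in the sources used here.

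In the V0 sector, Vha16-1 (2R, 6625242 to 6633090) was at 4776, 4498, 4892 and 4176 CPM in controls and at 3504, 3479, 4125 and 4697 CPM in LamDm0 guts. LamDm0 1, 2 and 3 were below every control, and LamDm0 4 lay among the controls. The log2 difference was -0.22 ± 0.17 (SE; 95% interval -0.60 to 0.17; Benjamini-Hochberg adjusted p = 0.49 in edgeR). VhaPPA1-1 (3R, 14902330 to 14904061), the larger proteolipid that completes the ring, was at 462, 454, 492 and 431 CPM in controls and at 347, 401, 433 and 489 CPM in LamDm0 guts. Its groups overlapped, with a log2 difference of -0.14 ± 0.13 (SE; 95% interval -0.44 to 0.17).

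Small subunit e was made mainly from VhaM9.7-b (3L, 21539862 to 21541215), at 359 ± 61.4 CPM in controls and 329 ± 18.9 CPM with LamDm0 (SD, n = 4 each). Per kb it gave 94.0% and 93.5% of the summed level of this subunit in the respective groups, and VhaM9.7-c gave 5.99% and 6.34%. VhaM9.7-c was at 15.6 ± 1.47 and 15.5 ± 0.634 CPM (SD, n = 4 each), and its log2 difference had an interval from -0.23 to 0.21. The accessory proteins gave similar values. VhaAC45, a homologue of the human accessory protein ATP6AP1, was at 818 ± 28.2 and 738 ± 146 CPM, and VhaM8.9, the homologue of the prorenin receptor ATP6AP2, was at 699 ± 56.0 and 596 ± 52.0 CPM (controls first; SD, n = 4 each). Their log2 differences were -0.15 ± 0.16 (SE; 95% interval -0.52 to 0.22) and -0.23 ± 0.13 (SE; 95% interval -0.52 to 0.058).

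**Figure D2:**
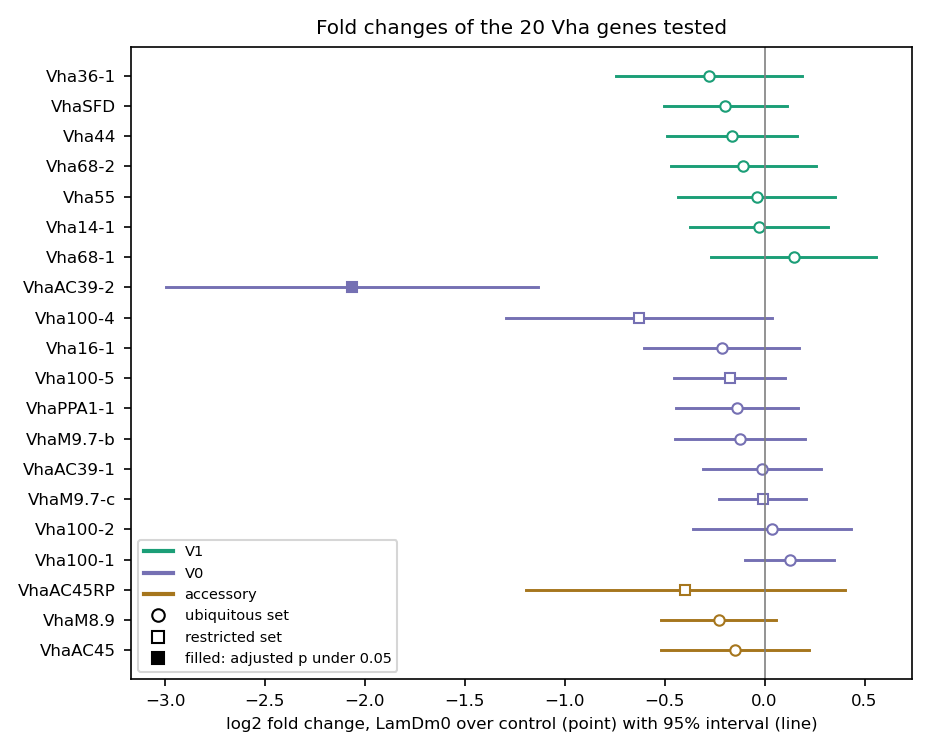
Log2 difference of LamDm0 against control (points) with its 95% interval (lines) for the 20 Vha genes tested, coloured by sector, with circles for the ubiquitous and squares for the restricted set. VhaAC39-2, at -2.06, is the 1 gene whose adjusted p passed the threshold, and the intervals of the other 19 reach across 0.

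VhaAC39-2 (3R, 23158017 to 23159316, minus strand) fell 4.18-fold. Subunit d, which it encodes, caps the proteolipid ring and passes the rotation of the stalk to it. VhaAC39-2 was at 1.63, 3.41, 3.69 and 3.16 CPM in controls and at 0.437, 1.33, 0.622 and 0.5004 CPM in LamDm0 guts, from 34, 67, 75 and 66 counts and 11, 28, 18 and 22 counts. Every LamDm0 library was below every control, and it was the 1 of 20 tested members without overlap between the groups, which 17.3% of all genes tested showed in either direction and 7.38% as lower. The log2 difference was -2.06 ± 0.41 (SE; 95% interval -2.99 to -1.13; Benjamini-Hochberg adjusted p = 0.0197 in edgeR). In the authors' deposited table, its log2 fold change was -1.67 with an adjusted p of 2.43e-05, and it was the 1 of the 23 members with an adjusted p in that table that was under 0.05, where 12.2% of all genes were. DESeq2 1.42.0 on the deposited counts gave -2.09. How the authors' fold change was estimated is not stated in the sources used here, so its size may not be on the same measure.

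The call rests on few counts. It was lost when control 2 (adjusted p = 0.053), LamDm0 3 (adjusted p = 0.061) or LamDm0 4 (adjusted p = 0.059) was left out, each in edgeR, at log2 differences of -1.99, -2.004 and -1.91. VhaAC39-1, the abundant paralog of subunit d, was at 666, 595, 579 and 553 CPM in controls and at 512, 605, 597 and 660 CPM in LamDm0 guts, with a log2 difference of -0.01 ± 0.13 (SE; 95% interval -0.31 to 0.28). Per kb, VhaAC39-2 made up 0.730% ± 0.255 of the summed subunit d level in controls and 0.176% ± 0.0969 in LamDm0 guts (SD, n = 4 each). The level of subunit d from both genes was therefore almost wholly that of VhaAC39-1 in every library, where its share was at least 99.1%.

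Malpighian tubule markers were examined beside VhaAC39-2, since tubules attached to the gut carry V-ATPase of their own. Uro, which is made in the tubule, was at 58.4, 15.8, 0.098 and 43.8 CPM in controls and at 0.079, 9.14, 34.7 and 0.136 CPM in LamDm0 guts, so that it varied within each group. The 12 tubule markers summed to 126 to 331 CPM in controls and to 143 to 195 CPM in LamDm0 guts. Of these 12, 1 was called by edgeR, which called 8.03% of all genes tested. This was Oatp58Db, an organic anion transporter, which fell from 6.16 ± 3.77 to 0.505 ± 0.214 CPM (SD, n = 4 each; log2 difference -3.61 ± 0.54, SE; Benjamini-Hochberg adjusted p = 0.0057 in edgeR). Of the 12 markers 9 had negative log2 differences, with a median of -0.53 against 0.01 over all genes tested, and 4 were under 0.05 before adjustment, 2 of them lower and 2 higher. DESeq2, which called 14.8% of all genes, called 2 of the 12 markers lower, Oatp58Db and the related Oatp58Dc. The latter was at 39.7, 14.1, 6.06 and 27.4 CPM in controls and at 3.78, 5.05, 10.9 and 3.94 CPM in LamDm0 guts. Irk3, a potassium channel, was at 34.3, 9.41, 2.86 and 30.7 CPM in controls and at 2.15, 8.19, 11.1 and 2.07 CPM in LamDm0 guts. The levels of Oatp58Dc and Irk3 overlapped between the groups. The 2 higher markers with an unadjusted p under 0.05 were Oatp58Da and tsh. Oatp58Da was at 27.2, 20.6, 25.3 and 37.4 CPM in controls and at 29.9, 32.5, 49.9 and 46.7 CPM in LamDm0 guts. Values of tsh were 6.17, 4.99, 4.14 and 5.88 CPM in controls and 7.79, 7.66, 7.88 and 6.37 CPM in LamDm0 guts, without overlap. The log2 differences of Oatp58Da and tsh were 0.53 ± 0.23 and 0.49 ± 0.15 (SE), and neither passed edgeR's threshold. The part of the tubule in the level of VhaAC39-2 was not tested.

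**Figure D3:**
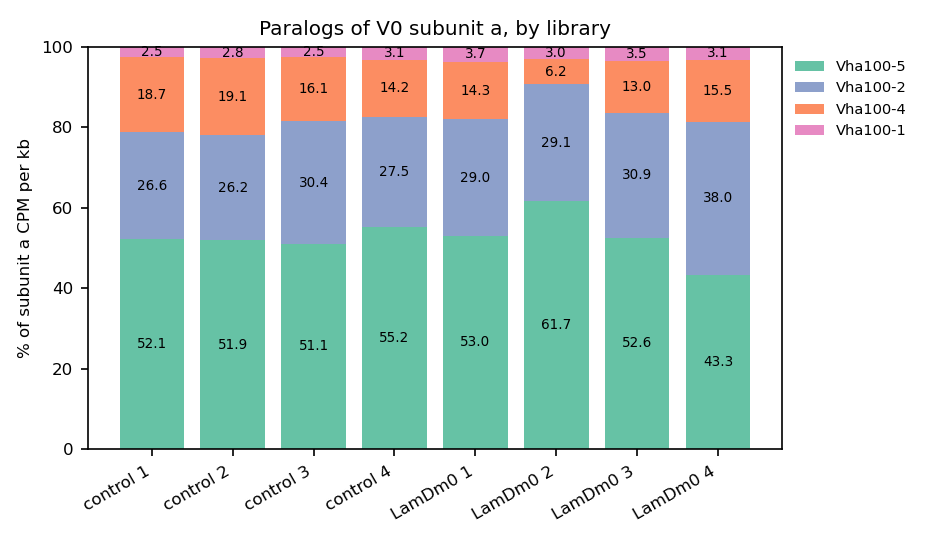
Shares of the 4 detected paralogs of subunit a in the summed level of this subunit, in percent of CPM per kb, with 1 stacked bar per library. Vha100-5 gave the largest share in every library, 43.3% to 61.7%, and Vha100-4 gave its smallest share, 6.196%, in LamDm0 2.

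Subunit a, which holds the channels through which protons enter and leave the ring and which sets where the pump is sent, was shared among several paralogs. Vha100-5 (2L, 11738948 to 11744524) was at 839, 800, 849 and 793 CPM in controls and at 677, 813, 750 and 667 CPM in LamDm0 guts. Vha100-2 (3R, 18390323 to 18399169) was at 447, 422, 527 and 412 CPM in controls and at 385, 400, 459 and 611 CPM in LamDm0 guts. The groups overlapped for both, and LamDm0 4 was the lowest library for the first and the highest for the second.

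Vha100-4 (3R, 18386841 to 18389805), whose gene lies 517 bases from that of Vha100-2, was at 282, 276, 250 and 191 CPM in controls and at 171, 76.3, 174 and 223 CPM in LamDm0 guts. LamDm0 1, 2 and 3 were below every control, with LamDm0 2 the lowest, and LamDm0 4 was above control 4. The log2 differences were -0.18 ± 0.12 (SE; 95% interval -0.46 to 0.10) for Vha100-5, 0.04 ± 0.17 (SE; 95% interval -0.36 to 0.43) for Vha100-2 and -0.63 ± 0.29 (SE; 95% interval -1.30 to 0.03) for Vha100-4. None passed the threshold, with an adjusted p of 0.23 for Vha100-4 in edgeR after Benjamini-Hochberg adjustment. Vha100-1, which in flies is known from neurons, was at 44.6 ± 2.50 and 48.6 ± 4.44 CPM (SD, n = 4 each), and Vha100-3 had 0 counts.

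Per kb, Vha100-5 gave 52.6% ± 1.80 of the summed subunit a level in controls and 52.7% ± 7.51 in LamDm0 guts (SD, n = 4 each). Vha100-2 gave 27.7% ± 1.89 and 31.7% ± 4.29, and Vha100-4 gave 17.02% ± 2.33 and 12.3% ± 4.17. The share of Vha100-4 overlapped between the groups, from 14.2% to 19.1% in controls and from 6.196% to 15.5% in LamDm0 guts. An antisense RNA, asRNA:CR44144, overlaps 18.1% of the exon bases of Vha100-5 and was itself at 0.256 and 0.199 CPM in controls and LamDm0 guts.

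Copper cell markers, whose cells acidify the midgut lumen, were set beside Vha100-4. The copper cell selector gene lab was at 13.1, 15.7, 13.8 and 11.7 CPM in controls and at 6.64, 5.997, 9.13 and 13.8 CPM in LamDm0 guts. For lab and CAH2, LamDm0 2 was lowest and LamDm0 4 highest within the LamDm0 group, as for Vha100-4. For Ptx1, dve and CAH1 LamDm0 4 was also the highest of this group. The lowest, however, was LamDm0 1 for Ptx1 and dve and LamDm0 3 for CAH1. Among controls, Vha100-4, lab, Ptx1 and dve were lowest in control 4, whereas CAH1 and CAH2 were lowest in control 2. LamDm0 4 was also the highest of its group for most of the 13 main Vha genes, though not for Vha36-1, VhaM9.7-b and Vha100-5. The order of the LamDm0 libraries is therefore not particular to copper cell markers and Vha100-4. The 5 markers of copper cells and the acid zone summed to 598 to 779 CPM in controls and to 460 to 650 CPM in LamDm0 guts, and all 5 had negative log2 differences, with a median of -0.33 against 0.01 over all genes tested. None of the 5 passed edgeR's threshold, 2 were under 0.05 before adjustment (23.9% of all genes were), and DESeq2 called 1, CAH1, lower. The smallest p was that of CAH1, a carbonic anhydrase, at 395 ± 43.8 and 313 ± 32.8 CPM (SD, n = 4 each; Benjamini-Hochberg adjusted p = 0.16 in edgeR). The part of copper cells in the level of Vha100-4 was not tested.

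The 13 main genes had negative log2 differences without exception under TMM scaling, with a median of -0.15, and none was called. Their standard errors ran from 0.12 to 0.20, and their 95% intervals together spanned -0.74 to 0.35. Over all genes tested, 48.7% had a negative difference. Scaling by the library total alone shifted the median of all genes by 0.19 and left 3 of the 13 main genes negative, although 13 of 13 stayed below the median of all genes.

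The libraries of the LamDm0 group did not share 1 level of these genes. The median deviation of the 13 main genes from the control mean, on a log2 scale, was 0.044, -0.035, 0.062 and -0.090 in controls and -0.37, -0.21, -0.12 and 0.080 in LamDm0 guts. LamDm0 1 was thus the lowest and LamDm0 4 the highest of all libraries. LamDm0 1 was the lowest library for 10 of the 20 tested members, and LamDm0 1 or 2 for 14. The mitochondrial shares were 5.55%, 7.85%, 15.2% and 13.8% in controls and 21.8%, 10.6%, 8.53% and 10.3% in LamDm0 guts. LamDm0 1 thus had the lowest levels and the highest share, but LamDm0 2 and 4 had similar shares at different levels, and control 3, with the second highest share, lay above its group's mean. With mitochondrial genes and Lam removed before scaling, the median of the 13 genes was -0.16, and without LamDm0 1 and 2 it was -0.032, with 7 of 13 negative. All Vha genes together took 1.49%, 1.38%, 1.33% and 1.23% of the counts in controls and 1.08%, 1.11%, 1.60% and 1.85% in LamDm0 guts, with no TMM scaling.

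**Figure D4:**
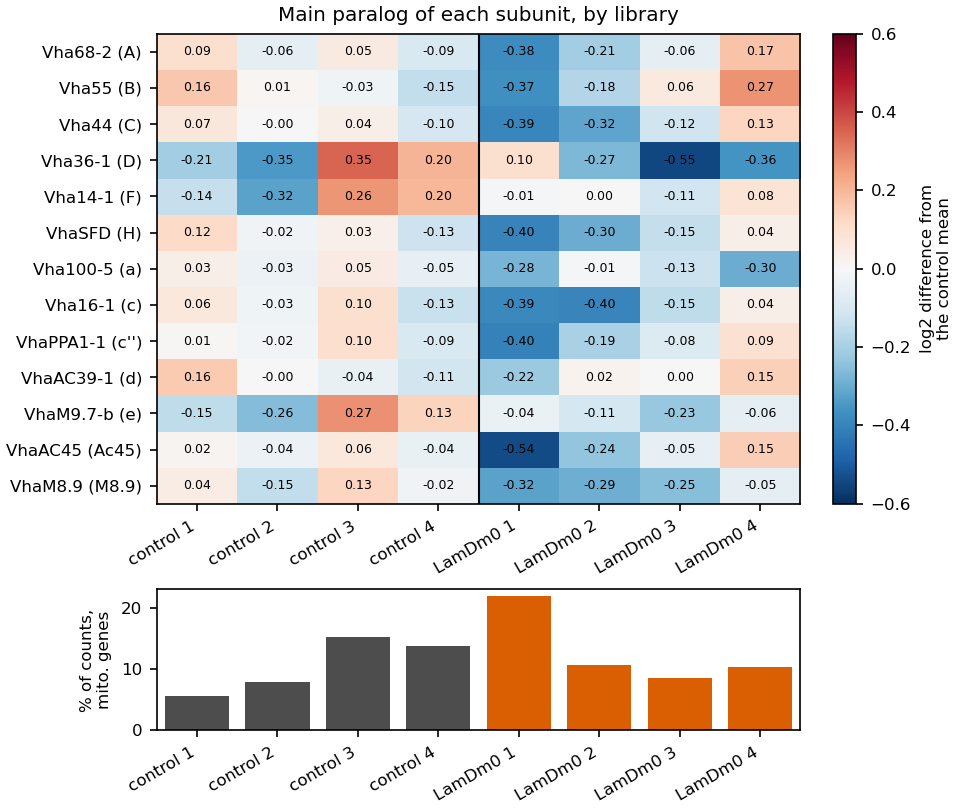
Log2 difference of each of the 13 main Vha genes from its control mean in each of the 8 libraries (colours and printed values, subunit letter in parentheses), above the percent of counts from mitochondrial genes. Most genes are below 0 in LamDm0 1 and LamDm0 2 and above 0 in LamDm0 4, where the median was 0.080, while Vha36-1, Vha14-1 and VhaM9.7-b are above 0 in controls 3 and 4.

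V1 and V0 were compared as wholes. The median log2 difference was -0.11 over the 7 tested of 11 V1 genes (from -0.28 to 0.15) and -0.13 over the 10 tested of 18 V0 genes (from -2.06 to 0.13), against 0.01 over all genes tested. For the 3 accessory genes it was -0.23. The V1 median was -0.029 without LamDm0 1, -0.21 without LamDm0 4 and 0.0087 without LamDm0 1 and 2. The V0 median was -0.077 without control 3 and -0.053 without LamDm0 1 and 2. The ratio of summed V1 to summed V0 levels per kb was 0.858, 0.820, 0.906 and 0.950 in controls and 0.954, 0.929, 0.871 and 0.898 in LamDm0 guts. The groups overlapped in this ratio, with 0.884 ± 0.0565 and 0.913 ± 0.0362 (SD, n = 4 each). Without Vha16-1 the ratio was 1.77 ± 0.0846 and 1.77 ± 0.0569 (SD, n = 4 each). The unmatched V1 genes for E and G are outside these sums.

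The paralogs were also divided into 16 described from fly tissues at large as ubiquitous and 16 described as tissue-restricted. Of the ubiquitous genes 15 were tested, with a median log2 difference of -0.12, and 12 were negative. That median was -0.038 without LamDm0 1, -0.21 without LamDm0 4 and 0.0087 without LamDm0 1 and 2. Of the restricted genes 5 were tested, with a median of -0.40, and all 5 were negative. It ran from -0.57 without control 1 to -0.21 without control 3. These 5 were the abundant Vha100-5 and Vha100-4, VhaM9.7-c, VhaAC39-2 and VhaAC45RP. Vha100-1, although known from neurons, was placed in the ubiquitous set, and its log2 difference was 0.13. The uniformly negative sign of the restricted set therefore depends on this placement. The medians with Vha100-1 moved to the restricted set were not computed. No restricted V1 gene was tested, and the 6 tested ubiquitous V0 genes and 4 tested restricted V0 genes had medians of -0.07 and -0.40.

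The division did not follow the levels in the gut for every gene. Vha100-5 and Vha100-4, from the restricted set, were at 281 and 91.4 CPM per kb in controls. VhaM9.7-a and Vha68-1, from the ubiquitous set, had 39 counts in all and 1.73 CPM per kb in controls. Vha68-1 (2L, 13000770 to 13004107), a second catalytic subunit A gene, was at 4.64, 3.87, 4.73 and 4.78 CPM in controls and at 6.04, 3.71, 5.74 and 4.44 CPM in LamDm0 guts, and per kb it gave 0.255% and 0.311% of subunit A in the respective groups.

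The remaining paralogs were at or near 0. Vha100-3, Vha14-2, Vha16-2, Vha16-3, Vha16-4 and VhaPPA1-2 had 0 counts in every library, below the floor of 0.0833 to 0.152 CPM. Vha36-2 had 2 counts over the 8 libraries, Vha16-5 had 3 and VhaM9.7-d had 5. Vha36-3 had 43 counts, and Vha68-3, whose gene begins 178 bases beyond Vha68-2, had 62. VhaAC45RP, related to the accessory protein Ac45, was tested from 81 counts in all, at 0.466 ± 0.144 and 0.346 ± 0.0753 CPM (SD, n = 4 each). How reads that match more than 1 paralog were counted is not stated in the sources, so the levels of sparse genes with an abundant paralog are uncertain.

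Genes that assemble the pump or act with it showed few calls. Of 7 assembly and regulation genes written, 4 were matched and tested, and none passed edgeR's threshold or had an unadjusted p under 0.05, nor did DESeq2 call one. The smallest p of these was that of Mitf, the transcription factor known to activate V-ATPase and lysosomal genes in flies, at 93.0 ± 19.9 and 80.4 ± 12.5 CPM (SD, n = 4 each; log2 difference -0.21 ± 0.17, SE). Of 12 tested genes of TORC1 at the lysosome, none passed edgeR's threshold, 6 were under 0.05 before adjustment, against 23.9% of all genes, and DESeq2 called 1 higher and 2 lower, against 14.8% of all genes called. Rheb, the GTPase that activates TORC1, had the smallest p, at 76.6, 80.5, 60.6 and 63.9 CPM in controls and 54.5, 55.0, 47.8 and 47.4 CPM in LamDm0 guts. Its groups did not overlap, and its log2 difference was -0.46 ± 0.12 (SE; Benjamini-Hochberg adjusted p = 0.051 in edgeR).

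A list of 32 genes of ion transport and carbonic anhydrases, kinds that can balance the charge and protons moved by the pump, was also examined. Beside chloride channels, cation exchangers and carbonic anhydrases it held kcc, Ncc69, Prestin and the potassium channels Irk1, Irk2 and Irk3. Irk2 and Irk3 are among the tubule markers too. Of the 32 genes, 23 were tested, 1 rose and 1 fell, against 8.03% of all genes called by edgeR. Cftr, named after the human chloride channel, was at 38.3, 36.6, 44.0 and 47.6 CPM in controls and at 63.8, 82.7, 73.9 and 85.9 CPM in LamDm0 guts. It rose 1.84-fold without overlap between the groups (log2 difference 0.88 ± 0.13, SE; Benjamini-Hochberg adjusted p = 0.0057 in edgeR). Ndae1, an exchanger of sodium and bicarbonate for chloride, was at 201, 180, 225 and 178 CPM in controls and at 117, 158, 127 and 120 CPM in LamDm0 guts. It fell 1.504-fold, also without overlap (log2 difference -0.59 ± 0.14, SE; Benjamini-Hochberg adjusted p = 0.034 in edgeR). The Cftr call held in all 8 fits that left out 1 library, and the Ndae1 call in 2 of 8, those without control 4 and without LamDm0 2, with an adjusted p of up to 0.094. The Ndae1 call was also lost with the replicate block (adjusted p = 0.11), with library totals (0.14), without LamDm0 3 and 4 (0.15) and with replicates summed in pairs (0.42), and the Cftr call with summed pairs (0.18), all in edgeR. DESeq2 called 1 gene of the list higher and 6 lower, against 14.8% of all genes called, and the median of the 23 was -0.26 against 0.01 over all genes tested.

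Enterocytes, in which LamDm0 was expressed, were checked with 8 markers, which summed to 22521 to 32577 CPM in controls and to 21201 to 33967 CPM in LamDm0 guts. Of the 8 genes in this list, 1 was called by edgeR, which called 8.03% of all genes tested. This was Alp4, an alkaline phosphatase, which fell from 76.7 ± 29.0 to 28.2 ± 10.4 CPM (SD, n = 4 each; Benjamini-Hochberg adjusted p = 0.037 in edgeR). That call held in 3 of the 8 fits that left out 1 library. Alp4 was at 94.8, 48.9, 55.3 and 108 CPM in controls and at 28.6, 28.0, 15.4 and 40.8 CPM in LamDm0 guts. Controls 1 and 4 were its highest controls, as for the tubule markers Uro, Oatp58Dc and Irk3. Within the LamDm0 group, LamDm0 3 was lowest for Alp4 but highest for those markers. Whether the Alp4 counts came from enterocytes or from tubules was not tested. Of the 8 markers 7 had negative log2 differences, with a median of -0.14, beside -0.15 for the 13 main Vha genes. LManII, a lysosomal alpha-mannosidase, was at 2609, 2387, 2709 and 3208 CPM in controls and at 1935, 2300, 2158 and 1698 CPM in LamDm0 guts, without overlap, and its adjusted p in edgeR was 0.16. DESeq2 called LManII and Alp4 lower, against 14.8% of all genes called. The part of enterocyte content in the Vha levels was not tested. No marker of stem cells and enteroblasts (6 tested), enteroendocrine cells (8), visceral muscle (5), fat body and ovary (4) or neurons (4) passed edgeR's threshold. In this order, 0, 2, 0, 1 and 0 were under 0.05 before adjustment, a level that 23.9% of all genes tested reached. By DESeq2, which called 14.8% of all genes, Mip and apolpp were called higher.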

How the data were processed

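Poly(A) RNA libraries made with a strand-marking kit were analysed for 8 gut samples. The authors deposited whole-number counts per gene and a table of comparison results with a normalised signal, log2 fold changes and p-values. TopHat2 2.0.13, HTSeq 0.6.0, DESeq2 1.10.1 and the BDGP6 build are named in the submitters' processing notes, without their roles. No strand setting or annotation release is stated in the sources used here. Symbols, coordinates (1-based) and longest-transcript lengths came from BDGP6.54 (Ensembl 115), and Vha44 and VhaAC39-1 were matched to newer IDs by symbol.

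The deposited counts were filtered with filterByExpr, scaled by TMM and tested with edgeR 4.0.16 (R 4.3.3; glmQLFit, glmQLFTest, two-sided, Benjamini-Hochberg over all 8794 genes tested, threshold 0.05). Library totals include mitochondrial genes. A gene list was described by its calls and median, with no test over the list. The fit was tested on simulated data with 8684 genes and recovered 7.46% of genes changed 1.5-fold, 53.7% of those changed 2-fold and 98.5% of those changed 4-fold. The changed genes, 67, 67 and 66 for these folds, were drawn only from genes with a mean above 2 CPM. VhaAC39-2 and VhaAC45RP lay below that level, so these shares do not cover genes as sparse as them. Members, paralog classes and lists were chosen with earlier results of these data known. The text names Lam, each Vha gene called, the highest paralog per subunit by CPM per kb, all Vha genes with at least 10 counts, and from each list up to 4 called members or the 1 with the smallest p. Markers named beyond that rule (Uro, Oatp58Da, Oatp58Dc, tsh, Irk3, lab, Ptx1, dve, CAH2, LManII), and Hmgs and asRNA:CR44144, which overlap members, were chosen after their values were seen. Intervals cover the spread between repeats, and floors cover counting error only.

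Alternatives were DESeq2 1.42.0, limma-voom (limma 3.58.1), other scalings, filters, a replicate block and libraries left out. Same-numbered libraries did not deviate together (r = -0.18, -0.060, -0.37 and -0.027), so numbers were not used as pairs. No pair of libraries agreed within sampling noise. Controls 1 and 2, and LamDm0 3 and 4, were the closest, with a relative spread between the 2 libraries (biological coefficient of variation) of 0.139 and 0.163. The other pairs within a group ran from 0.201 to 0.321. The labels name no batch, and the cause of this closeness was not tested. For the summed pairs, replicates 1 and 2 and replicates 3 and 4 of each group were added together.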

Additional observations from a re-analysis of the deposited data

Results flagged for a closer look

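Among the 54 sets of 4 libraries examined, 1 held a library far from the other 3: Vha68-1 in control 2, where it stood at 3.87 CPM while controls 1, 3 and 4 lay between 4.64 and 4.78 CPM. Chance alone marks about 1 in 20 such sets.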

How the results depend on the processing

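Across 20 alternatives the count of Vha genes called higher stayed at 0. The count called lower was 1, but 0 with a filter at a mean of 5 CPM (which removes VhaAC39-2), without LamDm0 replicates 3 and 4, and with replicates summed in pairs, and it ran from 0 to 1 when 1 library was left out. The log2 difference of VhaAC39-2 ran from -2.50 to -1.75 (adjusted p from 3.0e-05 with DESeq2 to 0.13). With the replicate number as a block, it was -2.11 (adjusted p = 0.032), the V1 median was -0.12, the V0 median -0.13, and the same counts of 0 higher and 1 lower were reached, although the block lowered the calls over all genes from 419 higher and 287 lower to 211 and 121. Over all genes DESeq2 called 668 higher and 636 lower, library totals 548 and 134, upper quartile scaling 467 and 255, and summed pairs 36 and 36. Leaving out LamDm0 3 and 4 gave 302 and 137, control 1 gave 214 and 132, control 2 gave 248 and 148, LamDm0 3 gave 265 and 132 and LamDm0 4 gave 249 and 138.

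With library totals the medians were 0.072 for V0, 0.10 for V1, 0.074 for ubiquitous and -0.18 for restricted genes, when the median of all genes was 0.20. Without LamDm0 3 and 4 they were -0.27 for V1, -0.27 for ubiquitous and -0.61 for restricted genes. Without LamDm0 1 and 2 both the V1 and the ubiquitous median were 0.0087. When 1 library was left out, the V1 median ran from -0.21 to -0.029, the V0 median from -0.17 to -0.077 and the ubiquitous median from -0.21 to -0.038. The restricted median was also -0.26 without a filter, -0.17 with the 5 CPM filter, -0.23 without LamDm0 1 and 2, -0.19 with summed pairs, and -0.57 to -0.21 when 1 library was left out.

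Signs changed only for genes that were not called. With library totals the log2 differences were 0.0078 for Vha100-5, 0.17 for Vha14-1, 0.048 for Vha44, 0.17 for Vha55, 0.10 for Vha68-2, 0.18 for VhaAC39-1, 0.069 for VhaAC45, 0.074 for VhaM9.7-b, 0.18 for VhaM9.7-c, 0.070 for VhaPPA1-1 and 0.0095 for VhaSFD. With upper quartile scaling they were 0.0091 for VhaAC39-1 and 0.015 for VhaM9.7-c. Without LamDm0 1 and 2 they were 0.0087 for Vha44, 0.17 for Vha55, 0.060 for Vha68-2, 0.073 for VhaAC39-1, 0.054 for VhaAC45 and 0.0060 for VhaPPA1-1, and without LamDm0 3 and 4 they were -0.20 for Vha100-2 and 0.043 for VhaM9.7-c. When 1 library was left out, Vha100-2 ran from -0.13 to 0.12, Vha14-1 from -0.13 to 0.062, Vha55 from -0.16 to 0.057, VhaAC39-1 from -0.068 to 0.053 and VhaM9.7-c from -0.049 to 0.056. The cause of these changes was not tested. Paralogs near the floor of 3 counts cannot be compared at this depth.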
